A study of Mus musculus with 21 samples.

Results

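The Ly6 surface antigens measured here are 5 genes, Ly6a, Ly6c1, Ly6c2, Ly6d and Ly6e, of 14315 genes that could be named and tested in the series. They were chosen by name. Each has 1 probe on the array, found through the RefSeq accession that the array gives for it, and all 5 probes passed the filter on dim signals. Transcript levels were measured in 7 sorted fractions of bone marrow cells, each fraction on 3 arrays. The mice were C57BL/6, and the labels name no treatment of them. KLS cells are lineage-negative cells that carry Kit and Sca1, and stand for multipotent progenitors. PreMegE (CD150 positive, CD105 negative and Fc gamma receptor negative), CFUe (colony-forming unit erythroid) and Ter119 cells (CD71 and Ter119 positive) are named for 3 stages on the erythroid side. CFUe are labelled as CD150, CD105 and Fc gamma receptor negative. PreGM (CD150, CD105 and Fc gamma receptor negative), GMP (granulocyte-macrophage progenitors; CD150 negative, Fc gamma receptor positive) and Mac1Gr1 cells (Mac1 and Gr1 positive) are named for 3 stages on the myeloid side. The age and sex of the mice and the number of mice behind a sample are not given in the labels. The p values therefore measure the spread between arrays within fractions, estimated for each probe over all 7 fractions together. Scattered arrays in 1 fraction thus widen the intervals of every comparison of that probe.

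The sorting gates bear directly on these genes. Ly6a encodes Sca1 itself. Gr1 antibodies in common use bind Ly6G, and many also bind Ly6C, the product of Ly6c1 and Ly6c2. Gr1 was among the antigens that the lineage-negative fractions had to lack (with B220, CD3, CD4, CD8, CD41, Mac1 and Ter119), and Mac1Gr1 cells were taken for it. The labels list Sca1 as positive for all 5 lineage-negative fractions. They give the same antigens for CFUe and PreGM, so the CD105 label of CFUe is uncertain. The published sorting scheme to which the labels refer is known for taking PreMegE, CFUe, PreGM and GMP from Sca1-negative cells, so the Sca1 gate of those 4 fractions is uncertain. The labels of Ter119 cells name no antigen that had to be absent.

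Ly6 proteins are small, cysteine-rich molecules of the Ly6/uPAR family, most of them held at the cell surface by a glycolipid (GPI) anchor. In blood cell biology they are best known as markers. Sca1 marks haematopoietic stem and multipotent cells and is also carried by some mature and interferon-exposed cells. Ly6C is used to grade monocytes and is found on granulocytic cells, Ly6D marks lymphoid progenitors committed to the B lineage, and Ly6E (also called TSA-1 or Sca2) is widely expressed and induced by interferon. In the assembly used for gene names (GRCm38.p6), the genes lie in 1 cluster on chromosome 15, in the order Ly6d, Ly6k, Ly6m, Ly6e, Ly6i, Ly6a, Ly6c1, Ly6c2, Ly6a2, Ly6g, Ly6g2, Ly6f, Ly6l and Ly6h.

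Ly6c1 and Ly6c2 are near-identical neighbours in that cluster, and their probes followed each other closely over the fractions, as described further on. The 250 bases before an annotated start of each gene are shown because of that shared pattern. They were taken from RefSeq (GRCm38.p6), lie at chr15:75048838-75049087 for Ly6c1 and at chr15:75111972-75112221 for Ly6c2, both on the minus strand, and are printed 5′ to 3′ with GGAAG or its reverse complement CTTCC, the core letters of the sites of ETS factors such as PU.1, in capitals.
Ly6c1: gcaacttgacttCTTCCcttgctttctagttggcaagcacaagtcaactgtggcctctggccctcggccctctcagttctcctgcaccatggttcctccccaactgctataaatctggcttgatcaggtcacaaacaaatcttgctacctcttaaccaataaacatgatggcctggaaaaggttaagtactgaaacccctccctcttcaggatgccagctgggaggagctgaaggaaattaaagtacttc
Ly6c2: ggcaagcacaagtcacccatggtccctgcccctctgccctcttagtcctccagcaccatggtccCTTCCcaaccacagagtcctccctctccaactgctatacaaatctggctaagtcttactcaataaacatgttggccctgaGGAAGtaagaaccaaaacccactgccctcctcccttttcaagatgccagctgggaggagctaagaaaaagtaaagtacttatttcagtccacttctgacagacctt
Over the aligned letters, 164 of 216 were identical (75.9%). GGAAG was found 1 time in the window of Ly6c1 and 2 times in that of Ly6c2, and 64.1% of 32851 such windows of mouse genes held it on either strand. AGATAAG, a letter string bound by GATA factors and held by 2.74% of all windows, was in neither, and nor were the longer ETS string GGAAGTG (8.55% of all windows) and the STAT string TTCNNNGAA (7.02%). A second annotated start of Ly6c1 had 4 GGAAG matches in its window and a second start of Ly6c2 had 3, again with none of the other strings. In each gene the second window overlaps the first, and for Ly6c2 it holds the same 2 matches again. A match or its lack describes these letters only.

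Levels are given as the log2 intensity of the probe relative to the 75th percentile of its array, so that 0 is the level below which 3 of every 4 spots lie. Levels can be compared between fractions for 1 probe but not between probes. The software of the scanner marks signals that are well above background, and signals without that mark have no firm level. Differences between fractions were tested with limma over 29532 probes, with Benjamini-Hochberg adjustment. Calls needed an adjusted p under 0.05 as well as a difference of at least 2-fold (1 on the log2 scale). Shares of all probes called in a comparison include both directions, also where they stand beside counts in 1 direction. All 5 members differed among the 7 fractions (moderated F-test, adjusted p between 1.19e-13 for Ly6a and 3.12e-07 for Ly6e), as did 94.7% of all probes tested.

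**Figure D1:**
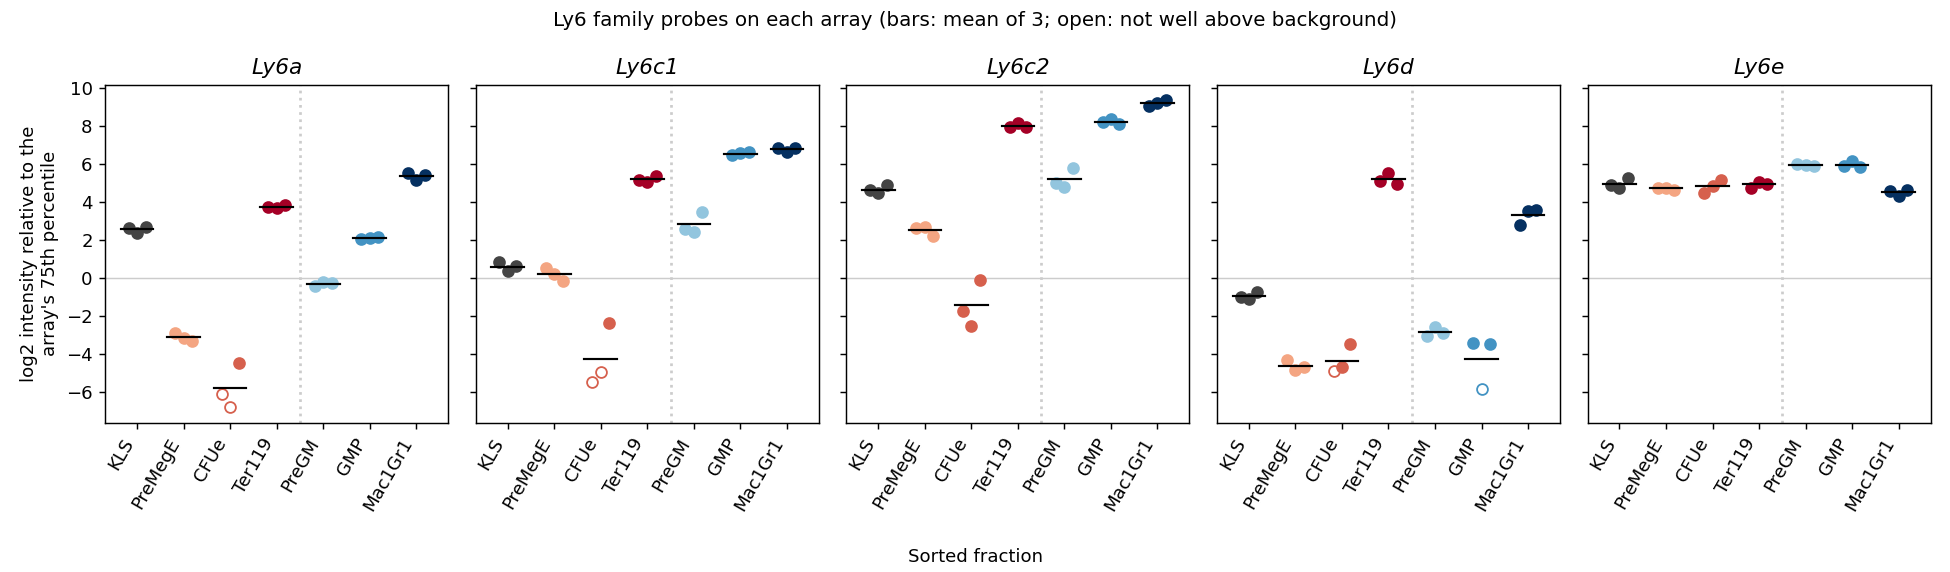
Level of each Ly6 probe on each of the 21 arrays, as log2 intensity relative to the array's 75th percentile (vertical axis), by sorted fraction with the erythroid side left and the myeloid side right of the dotted line. Points are arrays, bars are means of 3 arrays, and open points were not well above background; Ly6a, Ly6c1 and Ly6c2 were lowest in CFUe, while the fraction means of Ly6e lay between 4.51 and 5.97.

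Ly6a, the gene of Sca1, spanned 11.19 on the log2 scale between its highest and lowest fraction. It was highest not in KLS but in Mac1Gr1 cells, with levels of 5.51, 5.18 and 5.45 on the 3 arrays, followed by Ter119 cells with 3.72, 3.68 and 3.83. KLS cells, sorted for the Sca1 protein, came next with 2.64, 2.38 and 2.70. GMP lay just below KLS with 2.07, 2.09 and 2.13, and the arrays of these fractions did not overlap. Their difference of -0.48 did not pass the test (95% interval -1.25 to 0.30, adjusted p = 0.316), which pools the spread over all fractions, CFUe included. With the normexp background correction the limma fit gave -0.44 (adjusted p = 0.00903), still under the 2-fold minimum. PreGM gave -0.42, -0.23 and -0.28, PreMegE gave -2.91, -3.17 and -3.35, and CFUe gave -6.13, -6.83 and -4.48. Only replicate 3 of CFUe was well above background, so the CFUe mean is close to the limit of the array. No neighbouring fractions in this order overlapped.

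From KLS, Ly6a fell at the first step on each side. The log2 difference was -5.72 ± 0.37 (SE) in PreMegE, a 52.7-fold lower signal (adjusted p = 3.81e-09), and -2.88 ± 0.37 in PreGM, a 7.38-fold lower signal (adjusted p = 2.83e-05). PreMegE therefore lay 2.84 below PreGM (adjusted p = 1.57e-05). On the myeloid side Ly6a then rose at each further step, by 2.40 to GMP (adjusted p = 0.000108) and by 3.28 to Mac1Gr1 (adjusted p = 3.18e-07). On the erythroid side it fell by a further 2.67 to CFUe (adjusted p = 1.12e-05) and rose by 9.56 ± 0.37 to Ter119 cells (adjusted p = 3.74e-13). Scaling the arrays to the spike-in RNAs put the myeloid rises at 3.42 to GMP and 1.25 to Mac1Gr1. With the normexp background correction the fall from KLS to PreMegE was -4.88, the fall to CFUe was -0.69, under the 2-fold minimum, and the rise to Ter119 cells was 6.54. Without CFUe replicate 3 the same differences were -3.33 and 10.22.

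Ly6c1 and Ly6c2 encode the Ly6C antigens. Their probes shared a pattern over the 21 arrays (Pearson r = 0.98, across arrays that share fractions), and whether each probe also binds transcripts of the other gene was not tested. Ly6c1 gave 0.83, 0.34 and 0.61 in KLS, 0.53, 0.23 and -0.15 in PreMegE, and -5.47, -4.96 and -2.36 in CFUe, where only replicate 3 was well above background. It gave 5.14, 5.06 and 5.39 in Ter119 cells. Its myeloid levels were 2.59, 2.40 and 3.49 in PreGM, 6.47, 6.56 and 6.62 in GMP, and 6.85, 6.62 and 6.86 in Mac1Gr1. KLS and PreMegE overlapped, and all other neighbours in the order of levels were apart, though GMP and Mac1Gr1 by less than 0.01.

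Ly6c2 was well above background on all 21 arrays. It gave 4.61, 4.48 and 4.87 in KLS, 2.63, 2.66 and 2.22 in PreMegE, -1.73, -2.52 and -0.09 in CFUe, and 7.96, 8.18 and 7.94 in Ter119 cells. Its myeloid levels were 5.02, 4.80 and 5.79 in PreGM, 8.20, 8.37 and 8.10 in GMP, and 9.07, 9.22 and 9.36 in Mac1Gr1. The arrays of Ter119 and GMP overlapped, as did those of PreGM and KLS, and CFUe was apart from every other fraction.

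Along the myeloid steps, Ly6c1 rose by 2.23 ± 0.53 in PreGM (4.70-fold over KLS, adjusted p = 0.00532) and by a further 3.73 ± 0.53 in GMP (13.2-fold over PreGM, adjusted p = 5.45e-05). Ly6c2 rose by 3.02 ± 0.41 from PreGM to GMP (8.09-fold, adjusted p = 3.35e-05), while its difference of 0.55 between PreGM and KLS did not pass the test (95% interval -0.31 to 1.41, adjusted p = 0.362). GMP are lineage-negative cells, for which Gr1 was part of the exclusion, and yet their levels were close to those of cells taken for Gr1. Between Mac1Gr1 and GMP, Ly6c1 differed by 0.23 (95% interval -0.89 to 1.34, adjusted p = 0.707). Ly6c2 was 0.996 higher in Mac1Gr1 cells (1.99-fold, adjusted p = 0.0353), just under the 2-fold minimum. Scaling the arrays to the spike-in RNAs turned the last 2 values to -1.81 and -1.04, at adjusted p values of 0.000980 and 0.0118.

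On the erythroid side, Ly6c2 fell by 2.15 ± 0.41 from KLS to PreMegE (adjusted p = 0.000671), and Ly6c1 differed by -0.39 (95% interval -1.51 to 0.73, adjusted p = 0.627). Both then fell from PreMegE to CFUe, Ly6c1 by 4.47 ± 0.53 (adjusted p = 2.24e-06) and Ly6c2 by 3.95 ± 0.41 (adjusted p = 4.69e-07). From CFUe to Ter119 cells Ly6c1 rose by 9.46 ± 0.53 (adjusted p = 3.96e-11) and Ly6c2 by 9.47 ± 0.41 (adjusted p = 1.44e-12). With the normexp correction the falls to CFUe were -2.68 for Ly6c1 and -3.64 for Ly6c2, and the rises to Ter119 cells were 7.30 and 8.91. Without CFUe replicate 3 the falls were -5.42 and -4.63, and the rises were 10.41 and 10.15. With the slide of the arrays as a block, the fall of Ly6c2 to PreMegE was -1.48 and did not pass the test (adjusted p = 0.196).

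The log2 ratio of the Ly6c2 to the Ly6c1 probe was highest in KLS. Set to 0 at the KLS mean, it had a median of -1.69 in PreMegE, -1.66 in PreGM, -2.34 in GMP, -1.55 in Mac1Gr1, -1.24 in Ter119 cells and -1.62 in CFUe. The KLS arrays lay between -0.28 and 0.20. The array of CFUe replicate 3, at -0.32, was the nearest of the others, and the remaining arrays all lay at or below -0.94. Ly6c1 was dim on 2 CFUe arrays, and the ratio was not tested.

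Ly6d, a marker of lymphoid progenitors, had its highest levels in the erythroid-sorted Ter119 cells, with 5.11, 5.54 and 4.97. Mac1Gr1 cells followed with 2.77, 3.53 and 3.59, and KLS with -1.03, -1.10 and -0.73. The other fractions were low, with -3.08, -2.62 and -2.93 in PreGM, -3.46, -5.86 and -3.47 in GMP, -4.91, -4.70 and -3.51 in CFUe, and -4.32, -4.84 and -4.73 in PreMegE. GMP replicate 2 and CFUe replicate 1 were not well above background. GMP, CFUe and PreMegE overlapped, and the other neighbours were apart.

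Ly6d fell by 3.68 ± 0.50 from KLS to PreMegE (12.8-fold, adjusted p = 2.22e-05) and by 1.93 ± 0.50 from KLS to PreGM (3.80-fold, adjusted p = 0.00897). CFUe differed from PreMegE by 0.25 (95% interval -0.79 to 1.30, adjusted p = 0.695). From CFUe to Ter119 cells Ly6d rose by 9.58 ± 0.50 (adjusted p = 1.46e-11), and Mac1Gr1 cells exceeded GMP by 7.56 ± 0.50 (adjusted p = 3.10e-10). The fall of 1.39 from PreGM to GMP was at the edge of the test (adjusted p = 0.0484) and rested on the dim GMP replicate 2. Without that array it was -0.59 (adjusted p = 0.268), and Mac1Gr1 cells then exceeded GMP by 6.76. The normexp correction gave -2.31 in PreMegE vs KLS, -1.41 in PreGM vs KLS, 7.78 in Ter119 vs CFUe and 6.21 in Mac1Gr1 vs GMP. In the fit that blocks on slide, the falls from KLS to PreGM (-2.59, adjusted p = 0.0728) and from PreGM to GMP (-0.94, adjusted p = 0.383) did not pass.

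Under the percentile scaling Ly6e was the steady member, with fraction means within 1.47 of each other, against 9.84 to 11.19 for the others. That narrow spread depends on the scaling, as spike-in scaling put Ly6e in Mac1Gr1 vs GMP at -3.50. Under the percentile scaling Ly6e gave 4.91, 4.74 and 5.25 in KLS and 4.73, 4.76 and 4.65 in PreMegE. It gave 4.49, 4.85 and 5.18 in CFUe, and 4.75, 5.07 and 4.97 in Ter119 cells. Among myeloid fractions it gave 5.99, 5.94 and 5.89 in PreGM, 5.91, 6.16 and 5.85 in GMP, and 4.56, 4.34 and 4.62 in Mac1Gr1. PreGM and GMP were above all other fractions on every array and overlapped each other. KLS, Ter119, CFUe and PreMegE followed, each overlapping the next, and Mac1Gr1 was lowest.

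No erythroid step changed Ly6e by a called amount. Its differences were -0.25 (95% interval -0.60 to 0.09) in PreMegE vs KLS, 0.13 (-0.22 to 0.47) in CFUe vs PreMegE and 0.09 (-0.26 to 0.44) in Ter119 vs CFUe. On the myeloid side Ly6e was 0.98 ± 0.16 higher in PreGM than in KLS (adjusted p = 0.000381, just under 2-fold), differed by 0.03 between GMP and PreGM (95% interval -0.31 to 0.38), and fell by 1.47 ± 0.16 from GMP to Mac1Gr1 (2.77-fold, adjusted p = 3.13e-07). Spike-in scaling put the median of all probes at -1.33 in Ter119 vs CFUe. Ly6e then differed by -1.29 and was called (adjusted p = 0.000112), close to that median. With that scaling Ly6e was also called in Mac1Gr1 vs GMP (-3.50, median of all probes -1.86) and CFUe vs GMP (-2.51, median -1.15). The same held for CFUe vs KLS (-1.10, median -0.74) and GMP vs PreGM (1.05, median 0.99).

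**Figure D2:**
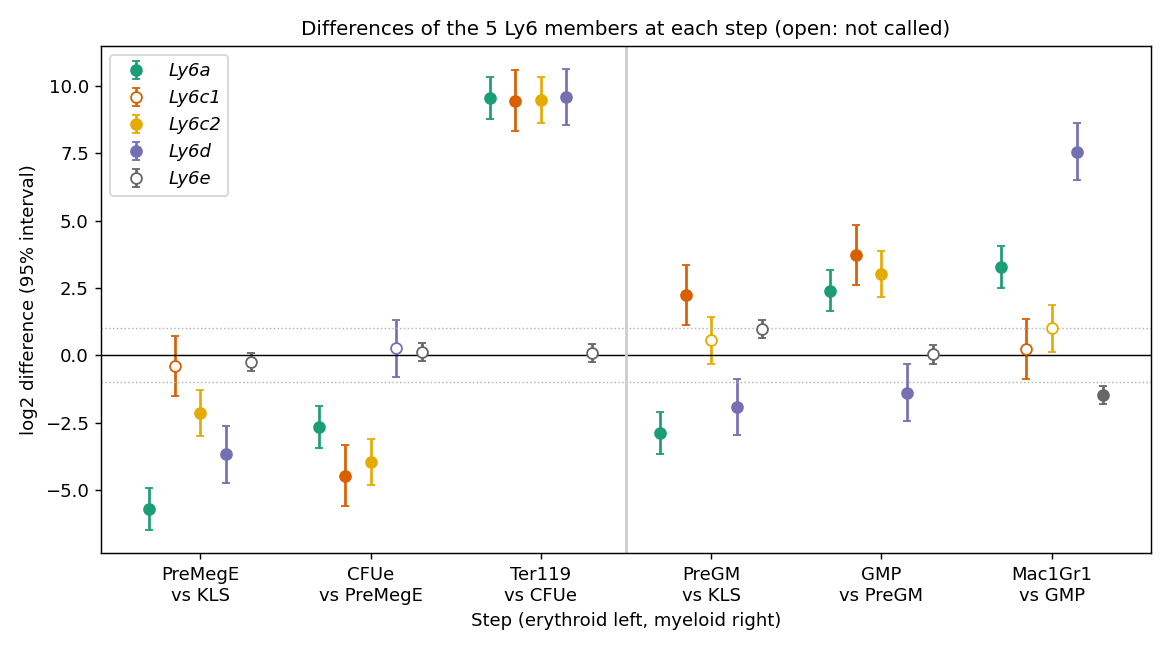
log2 difference of each Ly6 member (vertical axis, with the 95% interval of limma) at the 3 erythroid steps, left of the grey line, and the 3 myeloid steps, right of it. Filled points were called and open points were not, and dotted lines mark a 2-fold difference; Ly6a, Ly6c1, Ly6c2 and Ly6d lie between 9.46 and 9.58 at the Ter119 vs CFUe step, and Ly6e lies at 0.09.

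Counted over the family, 3 members fell at the first erythroid step (PreMegE vs KLS), a comparison in which 12.4% of all probes were called. At the second (CFUe vs PreMegE) 3 fell, with 24.7% of all probes called, and at the third (Ter119 vs CFUe) 4 rose, with 57.2% called. Of the 29532 probes, 2617 were lower at the first of these steps, 4349 lower at the second and 8618 higher at the third. On the myeloid side, PreGM vs KLS had 1 member higher and 2 lower against 8.64% of all probes called. GMP vs PreGM had 3 higher and 1 lower against 10.4%, and Mac1Gr1 vs GMP had 2 higher and 1 lower against 56.7%. Over the longer spans, 4 members were lower in CFUe than in KLS (36.3% of all probes called). In GMP vs KLS, Ly6c1 and Ly6e were among 3 members that were higher and Ly6d was lower (21.7% called). The rise of Ly6e there (1.01) was at the edge of the 2-fold minimum, and fell short of it with quantile scaling (0.52) and in the series table (0.72). Each comparison with KLS shares its 3 KLS arrays.

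The lineages were also set against each other at matched stages, to ask where the family parts between the erythroid and the myeloid side. All 5 members were lower in PreMegE than in PreGM, by 1.23 (Ly6e) to 2.84 (Ly6a), where 12.0% of all probes were called. In CFUe vs GMP 4 were lower, by 1.13 (Ly6e), 7.91 (Ly6a), 9.67 (Ly6c2) and 10.82 (Ly6c1), against 26.3% of all probes, and Ly6d differed by -0.11 (95% interval -1.16 to 0.94). Ly6a and Ly6c1 were well above background on only 1 CFUe array, and the normexp correction put their differences at -5.13 and -8.92. Without CFUe replicate 3 the differences were -8.57 for Ly6a, -11.77 for Ly6c1 and -10.35 for Ly6c2. In Ter119 vs Mac1Gr1 the distances were smaller, with Ly6a (-1.63), Ly6c1 (-1.58) and Ly6c2 (-1.19) lower and Ly6d (1.91) higher in Ter119 cells, against 41.9% of all probes. With the slide as a block these 4 values were -1.01, -0.78, -0.76 and 2.03, and none passed the test (adjusted p between 0.0629 and 0.437). No slide held arrays of both Ter119 and Mac1Gr1 cells, so that comparison has no within-slide value. The fall of Ly6d in PreMegE vs PreGM likewise missed the threshold in the slide-blocked fit (-1.58, adjusted p = 0.109), while the 2 slides that held these fractions gave -1.76 and -1.80.

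The change at a step differed between the sides. At the second step (CFUe vs PreMegE minus GMP vs PreGM) the difference was -5.07 ± 0.52 for Ly6a, -8.19 ± 0.75 for Ly6c1 and -6.97 ± 0.58 for Ly6c2 (adjusted p = 1.09e-06, 3.27e-07 and 1.08e-07), with 20.2% of all probes called. The normexp correction made these values -2.99, -6.46 and -6.71, and the fit without CFUe replicate 3 made them -5.74, -9.15 and -7.65. For Ly6d the second-step difference was 1.64 (95% interval 0.16 to 3.12, adjusted p = 0.0823) and for Ly6e 0.09 (-0.39 to 0.58, adjusted p = 0.792). At the third step (Ter119 vs CFUe minus Mac1Gr1 vs GMP) all 5 members passed, with 39.9% of all probes called. The values were 6.27 for Ly6a, 9.23 for Ly6c1, 8.48 for Ly6c2, 2.02 for Ly6d (adjusted p = 0.0215) and 1.56 for Ly6e. For Ly6a, Ly6c1, Ly6c2 and Ly6d, in that order, normexp gave 3.41, 7.17, 8.07 and 1.57, and leaving out CFUe replicate 3 gave 6.94, 10.19, 9.16 and 2.46. The value for Ly6d missed the threshold in the slide-blocked fit (2.09, adjusted p = 0.178) and in 5 of the fits that left out an array (1.62 to 1.86).

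Of the 11 comparisons, 6 had fractions that shared a slide. All 29 within-slide values of called differences had the sign of the value over all arrays. On its 1 shared slide, Ter119 vs CFUe gave 9.96 for Ly6a, 10.86 for Ly6c1, 9.67 for Ly6c2, 9.88 for Ly6d and 0.48 for Ly6e. CFUe vs KLS gave -7.13 for Ly6a, -3.19 for Ly6c1 and -4.70 for Ly6c2 on a slide that held CFUe replicate 3.

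Transcripts of other cell types moved with these levels, and the lists were set beside them. In Ter119 cells the 10 erythroid genes had array means of 5.05 to 5.52, the highest of any fraction. The 13 granulocytic genes, such as Ltf (mean 9.07) and Camp (8.52), had array means of 7.19 to 7.22 there, near the 7.70 to 7.91 of Mac1Gr1 cells and far above the -3.35 to -1.24 of CFUe. All 13 were well above background on every Ter119 array. The 7 B cell genes used were highest in Ter119 cells as well, at 2.46 to 2.87, against 0.29 to 0.99 in Mac1Gr1 cells and -4.09 to -1.91 in the other fractions. All 7, among them Ms4a1 (4.07), were well above background on each Ter119 array. The 8 monocytic genes lay at 1.86 to 2.15 in Ter119 cells against -4.79 to -3.01 in CFUe. All 8 rose at that step, with a median of 5.88, and 57.2% of all probes were called there. The 5 lymphoid progenitor genes that passed the filter all rose there too (median 4.46), to array means of 0.98 to 1.14 from -4.29 to -3.39. Other lists rose at that step as well, with 9 of 10 macrophage genes (median 3.73) and 5 of 5 plasmacytoid dendritic genes (4.44). So did 4 of 4 plasma cell genes (4.45) and 6 of 7 T cell genes (1.78). Of 10 erythroid genes 5 rose and 1 fell, and of 7 endothelial genes 2 rose and 1 fell. Ly6a, Ly6c1, Ly6c2 and Ly6d thus rose into Ter119 cells together with most of the lists. The part of the transcripts of any of these cell types in that rise was not tested. From KLS to PreGM, where Ly6c1 rose, 6 of the 8 monocytic genes rose and 2 fell (median 2.67), against 8.64% of all probes called. Their array means were 0.07 to 0.30 in KLS and 1.52 to 1.69 in PreGM. From PreGM to GMP, where Ly6c1 and Ly6c2 rose, 0 of the 8 monocytic genes were called (median -0.04). At that step 7 of the 13 granulocytic genes rose and 0 fell (median 1.31), against 10.4% of all probes called. From KLS to PreMegE, where Ly6d fell, all 5 lymphoid progenitor genes fell (median -4.26), against 12.4% of all probes called. Their array means went from -0.68 to -0.22 in KLS to -4.92 to -4.52 in PreMegE. The part of these lists in the changes of Ly6c1, Ly6c2 and Ly6d was not tested. In bulk samples, more cells of a type and more RNA per cell cannot be told apart.

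KLS cells carried macrophage transcripts, with means of the 10 genes at 0.91 to 2.37 against 0.08 to 0.33 in Mac1Gr1 cells and -5.87 to -1.20 elsewhere. They included Cd5l (3.35), C1qc (2.69) and Vcam1 (3.46), the last an adhesion molecule that other cells also express. All 10 were well above background on every KLS array. All 10 were called lower in PreMegE and in PreGM, together with Ly6a and Ly6d, where 12.4% and 8.64% of all probes were called. In GMP vs KLS 8 of the 10 were lower (median -4.90), with 21.7% of all probes called. Ly6a was not called in that comparison (-0.48). The part of the macrophage genes in the KLS levels of Ly6a was not tested. CFUe replicate 3 stood above the other CFUe arrays in the granulocytic list (-1.24 against -3.35 and -3.33) and the monocytic list (-3.01 against -4.79 and -4.75), and it also had the highest value of all 5 Ly6 members. The erythroid list was alike on the 3 CFUe arrays (2.14 to 2.23). Without that array the numbers of members called at CFUe vs PreMegE (3) and Ter119 vs CFUe (4) were the same.

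**Figure D3:**
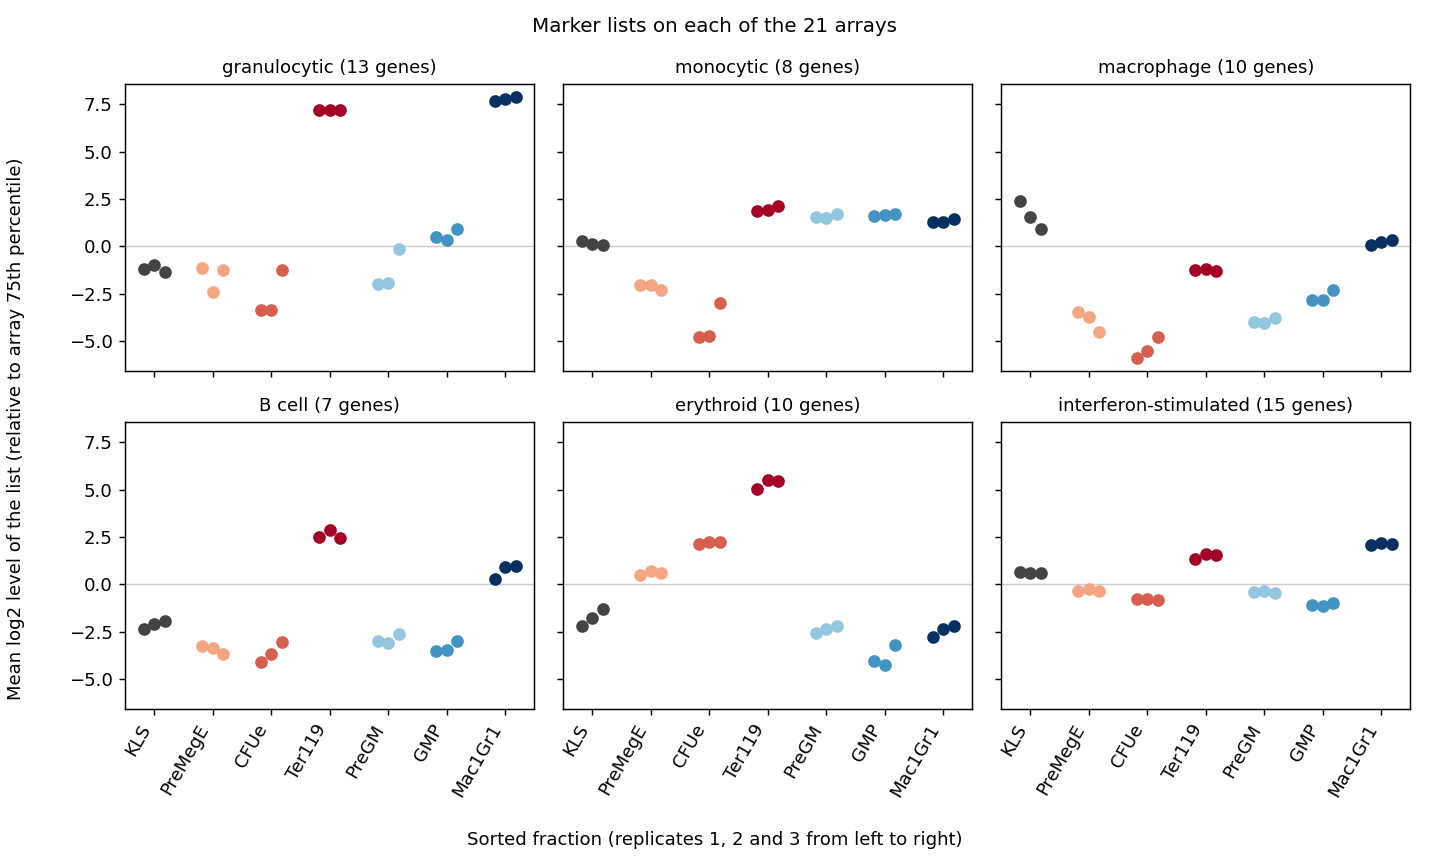
Mean level of 6 marker lists on each of the 21 arrays, as log2 intensity relative to the array's 75th percentile (vertical axis), by sorted fraction with replicates 1 to 3 from left to right. Each point is the mean over the listed genes that passed the filter on 1 array; the granulocytic list lies above 7 in Ter119 and Mac1Gr1 cells, and CFUe replicate 3 lies above the other CFUe arrays in the granulocytic and monocytic panels.

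Other genes of the Ly6 and uPAR families gave a mixed picture. Of 34 listed, 29 had a probe and 24 passed the filter on dim signals, and 21 of those were called at 1 step or more, as were 79.8% of all probes. Among the 24, 17 were higher and 2 lower in Ter119 cells than in CFUe, a step at which 57.2% of all probes were called, with a median of 1.87 (all probes 0.05). Mac1Gr1 vs GMP, with 56.7% of all probes called, had 16 higher and 1 lower, with a median of 1.34 (all probes 0.17). At the other 4 steps 3 to 7 of the 24 were called, with medians between -0.24 and 0.02.

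The neighbours of Ly6a and Ly6c1 in the cluster followed them in part. Ly6i, a close relative of Ly6a, had means of -1.06 in PreGM, 2.07 in GMP and 3.73 in Mac1Gr1 cells, and rose at both steps (3.12, adjusted p = 5.05e-08, and 1.67, adjusted p = 5.07e-06). It was at -2.87 in CFUe and 1.73 in Ter119 cells. Ly6f rose by 2.26 from PreGM to GMP (adjusted p = 0.00822) and by 4.87 to Mac1Gr1 (adjusted p = 7.86e-07). No CFUe array measured it well above background, and its signal was at least 55.1-fold higher in Ter119 cells than in CFUe (adjusted p = 2.78e-09). Ly6k, at the other end of the cluster, was highest in Ter119 cells (mean 0.80), 3.37 above CFUe and 3.64 above Mac1Gr1. Ly6m rose by 2.16 in Ter119 vs CFUe, and Ly6h rose by 1.47 in Mac1Gr1 vs GMP.

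Plaur, the urokinase receptor that gives the family part of its name, fell by 2.41 from KLS to PreMegE (adjusted p = 0.000314) and by 3.89 to CFUe (adjusted p = 8.21e-07), and rose by 8.52 to Ter119 cells (adjusted p = 8.20e-12). From GMP to Mac1Gr1 cells it rose by 4.92 (adjusted p = 1.07e-08). Lypd6b had means of -0.81 in KLS, -5.62 in GMP and 0.26 in Mac1Gr1, with a rise of 5.89 at the last step (adjusted p = 1.59e-10), and no CFUe array measured it well above background.

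Other relatives had other patterns. Gml2 was highest in CFUe, with a mean of 0.31 against -4.99 in KLS, after rises of 2.43 and 2.87 at the first and the second erythroid step (adjusted p = 7.47e-05 and 5.30e-06), and it fell by 4.15 in Ter119 cells (adjusted p = 1.63e-08). Cd59a, one of the genes of the complement inhibitor CD59, rose by 2.01 to PreMegE (adjusted p = 3.86e-06), fell by 1.23 to CFUe (adjusted p = 0.000254) and rose by 1.16 to Ter119 cells (adjusted p = 0.000219). It fell on the myeloid side by 1.56 to GMP and by 1.81 to Mac1Gr1. Its mean was 1.04 in Ter119 cells and -4.51 in Mac1Gr1 cells, a difference of 5.55 (adjusted p = 4.24e-12). The paralog Cd59b had a mean of -1.18 in Ter119 cells and was dim on all Mac1Gr1 arrays, none of them well above background. Ly6g6c was highest in CFUe (2.05). The remaining relatives that were called (Ly6g5b, Ly6g6d, Gpihbp1, Lynx1, Lypd2, Lypd3, Lypd4, Slurp1, Psca and Spaca4) rose in Ter119 vs CFUe, such as Lynx1 by 4.45. Lypd4, which no CFUe array measured well above background, was at least 5.10-fold higher in Ter119 cells.

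**Figure D4:**
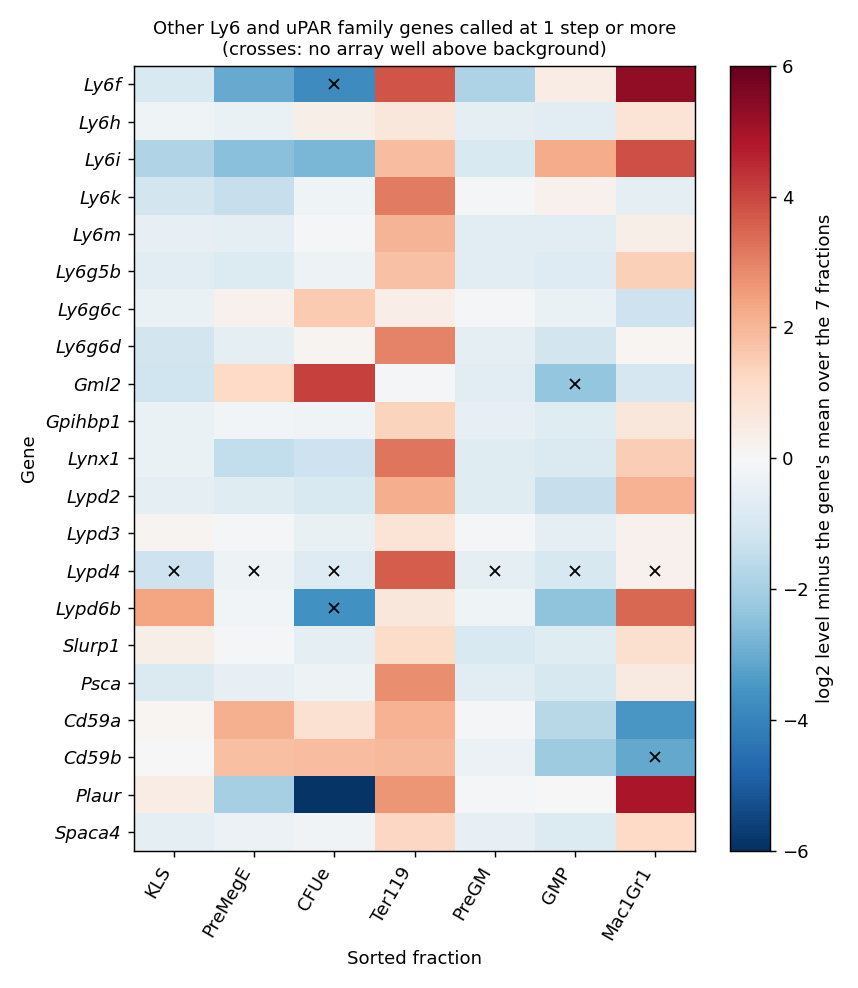
Mean level of 21 other Ly6 and uPAR family genes (rows) in the 7 sorted fractions (columns), as the log2 level minus the gene's mean over the fractions (colour scale). Crosses mark fractions in which no array was well above background; most genes are red in Ter119 or Mac1Gr1 cells, whereas Gml2 is red in CFUe and Cd59a and Cd59b are blue in Mac1Gr1 cells.

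The transcripts of the other sorting antigens were read against the same fractions, as a check of the labels. Slamf1 (CD150) was highest in PreMegE, the CD150-positive fraction, with a mean of 0.32, and was not well above background in CFUe, PreGM or GMP. Fcgr3 and Fcgr2b were at 3.33 and 2.67 in GMP, the Fc gamma receptor-positive progenitor, and Fcgr3 was 3.61 and Fcgr2b 1.75 higher there than in PreGM. Itgam (Mac1) was highest in Mac1Gr1 cells at 5.16, but also reached 3.02 in Ter119 cells. Tfrc (CD71) was at 3.51 in Ter119 cells and 3.12 in CFUe. Eng (CD105) was at 2.47 in CFUe, 2.15 in PreMegE and 1.68 in PreGM, fractions that the labels all call CD105 negative. It was highest in CFUe, whose CD105 label is uncertain. It was at 2.07 in KLS, and fell by 4.68 from CFUe to Ter119 cells. Itga2b (CD41) was highest in PreMegE at 2.84, although CD41 was one of the excluded antigens. Cd3e and Cd8a rose in Ter119 vs CFUe, by 1.19 and 1.76. Ly6a, the transcript of the Sca1 antigen, was called lower than in KLS in PreMegE, PreGM and CFUe, was not called between GMP and KLS, and lay above the KLS arrays on every Ter119 and Mac1Gr1 array.

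Interferon-stimulated genes were followed because Ly6a and Ly6e are known to respond to interferon. Of 16 listed, 15 were measured. None rose and 5 fell from KLS to PreMegE, led by Ifit3 (-3.06), Ifi44 (-2.86) and Oasl2 (-1.91), and none rose and 7 fell from KLS to PreGM, led by Ifit3 (-2.91), Oas2 (-2.52) and Ifi44 (-2.08). From PreMegE to CFUe 1 rose and 3 fell, with the largest changes for Gbp2 (-2.56), Oas2 (-1.98) and Ifit3 (-1.31), and from PreGM to GMP 5 fell, led by Ifi44 (-1.80). In Ter119 vs CFUe 10 rose, with Rsad2 at 8.11, and in Mac1Gr1 vs GMP 13 rose and 1 fell, with Ifit3 at 8.86. The list medians at the 6 steps, with the 3 erythroid steps first, were -0.60, -0.52, 1.84, -0.98, -0.57 and 2.71. In that order, 12.4%, 24.7%, 57.2%, 8.64%, 10.4% and 56.7% of all probes were called. Ly6a moved in the direction of the list median at 5 of 6 steps and opposite to it at GMP vs PreGM. The macrophage list had medians of -6.04, -1.57, 3.73, -6.23, 0.72 and 3.06 at these steps, each in the direction of Ly6a. At GMP vs PreGM, however, 3 of its 10 genes were called higher and 7 were not called. Ly6e fell from GMP to Mac1Gr1, where 13 of 15 interferon-stimulated genes rose. The difference of 0.98 for Ly6e between PreGM and KLS was not called. The part of interferon in the changes of Ly6a and Ly6e was not tested, nor that of macrophage genes in the changes of Ly6a.

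The genes most like each member over the 21 arrays, among 14128 genes measured on every array, were ranked by Pearson r as a description. The arrays share fractions, and no p is given. Ly6a was most like Adgre1 (r = 0.986), which encodes the macrophage antigen F4/80, then Nod1 (0.981) and Lima1 (0.977). Ly6c1 was most like Gpc1 (0.988), Igsf6 (0.985) and Fcgr3 (0.985), the last of them a receptor used in the GMP gate. Ly6c2 was most like Hvcn1 (0.990), which encodes a proton channel of phagocytes and B cells, then Soat1 (0.984) and Scnn1a (0.982). Ly6d was most like Rag1 (0.976), which cuts antigen receptor genes in lymphocytes, Cd22 (0.974), a B cell receptor, and Cxcr3 (0.973). Ly6e was most like Dcp2 (0.933), Nckipsd (0.926) and Iqcg (0.904). Between members, r was 0.94 for Ly6a with Ly6c2, 0.86 for Ly6a with Ly6c1, 0.75 for Ly6a with Ly6d, and between -0.38 and 0.27 for Ly6e with any other.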

How the data were processed

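Cells were sorted by the authors from mouse bone marrow, and Cy3-labelled RNA of every sample, with spike-in RNAs added, went onto its own one-colour genome-wide array. The deposited scanner files hold the processed signal of the spots, a linear intensity already corrected for background by the authors in Feature Extraction 10.7.1.1, and other columns with flags for outliers and signal well above background. A deposited table of the whole series gives log2 values normalized by the authors. These ranked probes as the scanner files did (rank correlation 0.9998 to 1.000); the method is not given in the sources used here, and the table served as an alternative. Per the file headers the array annotation follows mm9.

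From the 43379 spots that are not controls, log2 intensity minus the 75th percentile of the array was averaged per probe (41174 probes) after outlier spots were removed (80 to 283 per array). No spot was saturated, and 56.2% to 77.4% of probes were well above background per array. The filter on dim signals kept the 29532 probes with 1 fraction or more well above background on all its 3 arrays. Symbols came from RefSeq accessions of GRCm38.p6 (64.8% of probes), with the brightest probe for each gene. Differences were fitted in R 4.3.3 with limma 3.58.1 (a linear model with eBayes, 1 mean per fraction, two-sided, Benjamini-Hochberg over all probes tested, 14 residual degrees of freedom). Replicate numbers did not pair the samples: over 63 pairs with the same number the median correlation of deviations was 0.003, against 0.007 for others. Over 15 pairs on the same slide it was 0.117, against 0.0008 for pairs on different slides. The reported fit has no term for slide, and slide was a block in an alternative fit. Where no array of a fraction was well above background, the fold printed is a bound, set against the higher of the probe's own signal and the lowest signal well above background on each array. Figures and sequence searches used Python 3.11.15, pandas 2.3.3, matplotlib 3.10.9 and Biopython 1.88. The fit was tested on simulated data.

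The members and gene lists were chosen with earlier results of these data known. The rule for named genes was the 5 members, the relatives and sorting antigens called at a step, the 3 largest changes of the interferon list, and the 3 genes most like each member. Examples of the marker lists were chosen after their values were seen. The lists of lymphoid progenitor, T cell, plasma cell, plasmacytoid dendritic and endothelial genes had means in Ter119 cells of 0.98 to 1.14, -0.66 to -0.55, -0.28 to -0.08, 0.43 to 0.56 and -3.68 to -3.45 over the arrays. Ly6g, Ly6l, Gml, Lypd5, Slurp2, Kit, Mx1 and Igll1 were not analysed here. A further gene of the B cell list is not reported here and was left out of its means. Alternatives were quantile and spike-in scaling, normexp background correction (offset 50, on the median pixel signal in place of the planned mean, a column that was not used here), the series table, no filter on dim probes, slide and replicate blocks, no minimum change, the mean of all probes of a gene, a fit of only the fractions compared, and fits that left out 1 array.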

Additional observations from a re-analysis of the deposited data

Results flagged for a closer look

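The difference between the erythroid and the myeloid side passed the test for the following members, and passing was the only rule for listing them. Of all probes, 12.0% were called at the first step, 20.2% at the second and 39.9% at the third. At the first step (PreMegE vs PreGM, from the shared KLS) it was -2.84 for Ly6a, -2.62 for Ly6c1, -2.70 for Ly6c2, -1.75 for Ly6d and -1.23 for Ly6e on the log2 scale. For the second step, the erythroid minus the myeloid change was -5.07 for Ly6a, -8.19 for Ly6c1 and -6.97 for Ly6c2. For the third step it was 6.27 for Ly6a, 9.23 for Ly6c1, 8.48 for Ly6c2, 2.02 for Ly6d and 1.56 for Ly6e. In the limma fit with the slide as a block, Ly6d missed the threshold at the first step (-1.58, adjusted p = 0.109). It missed it at the third step too (2.09, adjusted p = 0.178). With the normexp background correction the second-step values were -2.99, -6.46 and -6.71, and the third-step values of Ly6a, Ly6c1, Ly6c2 and Ly6d were 3.41, 7.17, 8.07 and 1.57. Without CFUe replicate 3 they were -5.74, -9.15 and -7.65 at the second step and 6.94, 10.19, 9.16 and 2.46 at the third. The second and the third step share the CFUe and GMP arrays, so a low CFUe level enters these values with opposite signs.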

How the results depend on the processing

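Counts of members called kept within 1.5 times of the reported count under the alternatives, except in 2 cases. Spike-in scaling gave 5 in Mac1Gr1 vs GMP (2 higher, 3 lower), where 3 were reported, and the slide as a block gave 0 in Ter119 vs Mac1Gr1, where 4 were reported. The replicate block, a pairing that the samples did not bear out, changed 1 call, that of Ly6d in GMP vs PreGM (-1.39, adjusted p = 0.0516). Spike-in scaling put the median of all probes at -1.86 in Mac1Gr1 vs GMP, and at 0.99 in GMP vs PreGM, and it turned Ly6c1 (-1.81) and Ly6c2 (-1.04) in Mac1Gr1 vs GMP. It also turned Ly6e in Ter119 vs CFUe (-1.29), CFUe vs PreMegE (-0.39), Ter119 vs Mac1Gr1 (-0.30) and the second-step difference (-1.44), Ly6c2 in PreGM vs KLS (-0.064) and Ly6d in CFUe vs PreMegE (-0.26). Quantile scaling turned Ly6e in CFUe vs PreMegE (-0.39), GMP vs PreGM (-0.084) and the second-step difference (-0.31), and Ly6d in CFUe vs GMP (0.0041). The series table turned Ly6e in CFUe vs PreMegE (-0.37) and the second-step difference (-0.44), Ly6c1 in Mac1Gr1 vs GMP (-0.15) and Ly6d in CFUe vs GMP (0.0067). Normexp turned Ly6e in Ter119 vs CFUe (-0.030) and the second-step difference (-0.036), and Ly6d in CFUe vs GMP (0.24). The slide block turned Ly6c1 in PreMegE vs KLS (0.39) and Mac1Gr1 vs GMP (-0.30), and Ly6e in CFUe vs KLS (0.032). None of the values that turned was called in the reported fit, and the cause was not tested.

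Leaving out 1 array turned further values that were not called: Ly6d in CFUe vs PreMegE (-0.18 to 0.52) and CFUe vs GMP (-0.91 to 0.29), and Ly6e in CFUe vs PreMegE (-0.044 to 0.30), Ter119 vs CFUe (-0.084 to 0.26), GMP vs PreGM (-0.064 to 0.092), CFUe vs KLS (-0.30 to 0.048) and the second-step difference (-0.075 to 0.27). Of 1090 alternative values of members, 1011 kept direction and call, 33 lost the call, 13 gained it and 33 turned. Signal near background limits the levels of Ly6a and Ly6c1 in CFUe and of Ly6d in CFUe and GMP. Ly6d was as low in PreMegE (mean -4.63), although all 3 arrays there were marked well above background.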
